A study of Rattus norvegicus with 6 samples.

Results

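TEG3 is a rat cell line made from olfactory ensheathing cells with the SV40 large T antigen, and its expression was compared here with that of early-passage primary cultures of the same cell type, called OEC Ep. The comparison uses 4 of the 6 arrays of the study: 1 TEG3 and 1 OEC Ep array of the Affymetrix type U34A, and 1 of each of the larger type RAE2.0. Each population was set against the other within an array type, and the array type was the pairing block. On both types together 3131 genes had a measurable signal, and 8408 further genes were measured on RAE2.0 alone.

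All cells came from the olfactory nerve layer of the bulbs of Wistar rats and were grown in the same M3 medium, with 2 µM forskolin, pituitary extract at 20 µg/ml and 3% serum. OEC Ep cells came from rats of postnatal day 21, were over 90% pure by the submitters' staining, and gave RNA after 1 week in culture and less than 3 population doublings, with each culture from a single rat. TEG3 came from a culture of rats of postnatal day 60 that was transfected with a plasmid coding for large T, and it was then selected as a clone and passaged. The line is 1 clone, so the viral gene, the clone, the passages and the age of the donor cannot be told apart in its comparison with OEC Ep. The remaining 2 arrays carry OEC Lp, primary cells of postnatal day 21 that had passed over 50 doublings, with no transfection stated. They enter the estimate of the spread, and their levels are given beside those of TEG3 where they help. For each population 2 RNA pools of 3 cultures each were made, but the labels do not tie a pool to an array, so the p-values measure only the spread between arrays, which may be technical.

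Olfactory ensheathing cells are the glia that wrap the axons of the olfactory nerve. They derive from the neural crest, share markers such as Sox10, S100b and the neurotrophin receptor Ngfr with Schwann cells, and are studied because they can help cut axons to regrow. Large T antigen binds the retinoblastoma family of pocket proteins (Rb1, Rbl1 and Rbl2), which frees E2F factors to switch on the genes of DNA synthesis, and it also binds p53, which otherwise drives arrest genes such as Cdkn1a.

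A signal here is the deposited Microarray Suite intensity, scaled to 1 mean within each array type. Values below the 40th percentile of a type were raised to that floor, which was 128 on U34A and 168 on RAE2.0. The words "at least" before a fold mark a gene with a probe set at the floor in its lower population, for which the true difference can be larger. A log2 ratio is that of TEG3 over OEC Ep, averaged over the array types unless one is named. A gene is said to have risen or fallen only where its limma adjusted p was under 0.05, with Benjamini-Hochberg adjustment over all 3131 genes. Each population mean rests on 2 arrays, 1 of each type.

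The quality of the 4 arrays was alike on RAE2.0 and less so on U34A. Between 59.1% and 61.6% of probe sets lay above the floor on each of them. The ratio of the 3′ to the 5′ GAPDH probe set, a measure of RNA integrity, was 1.02 for both populations on RAE2.0, while on U34A it was 1.96 for OEC Ep and 1.54 for TEG3. The median log2 ratio was 0.04 over all genes on both types and 0.14 over the genes on RAE2.0 alone.

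Most measured markers of ensheathing glia fell in TEG3 and none rose, and the genes that rose included several of DNA synthesis. Of the 3131 genes, 136 passed the test, which is 4.34%. Of these, 116 fell in TEG3 (3.7% of the genes tested) and 20 rose (0.639%). The falls ranged from 3.05-fold to at least 197-fold, and 35 of them were 16-fold or more, whereas the rises ranged from 3.12-fold to at least 7.63-fold. For 87 of the 136 genes the fold is a lower bound. In 28 of the 116 that fell, TEG3 was at the floor for all probe sets on both types. Floored values carry no measured spread, so the p-values depend on the floor too, and with no floor no gene passed. All 136 went the same way on U34A and RAE2.0, by at least 2-fold on each, which the test with so few arrays requires. A looser count, of genes at least 2-fold apart in the same direction on both types, found 124 higher (3.96%) and 255 lower (8.14%). In 12 genes the types disagreed in direction by at least 2-fold each. The test rests on every array: with any 1 of the 6 left out no gene passed. All 136 kept their direction, but this is little support. Each was already at least 2-fold apart in the same direction on both types, and leaving out an OEC Lp array does not change the ratio. With the 2 OEC Lp arrays set aside and the filter on dim probe sets redone, 245 genes passed, 64 higher and 181 lower.

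**Figure D1:**
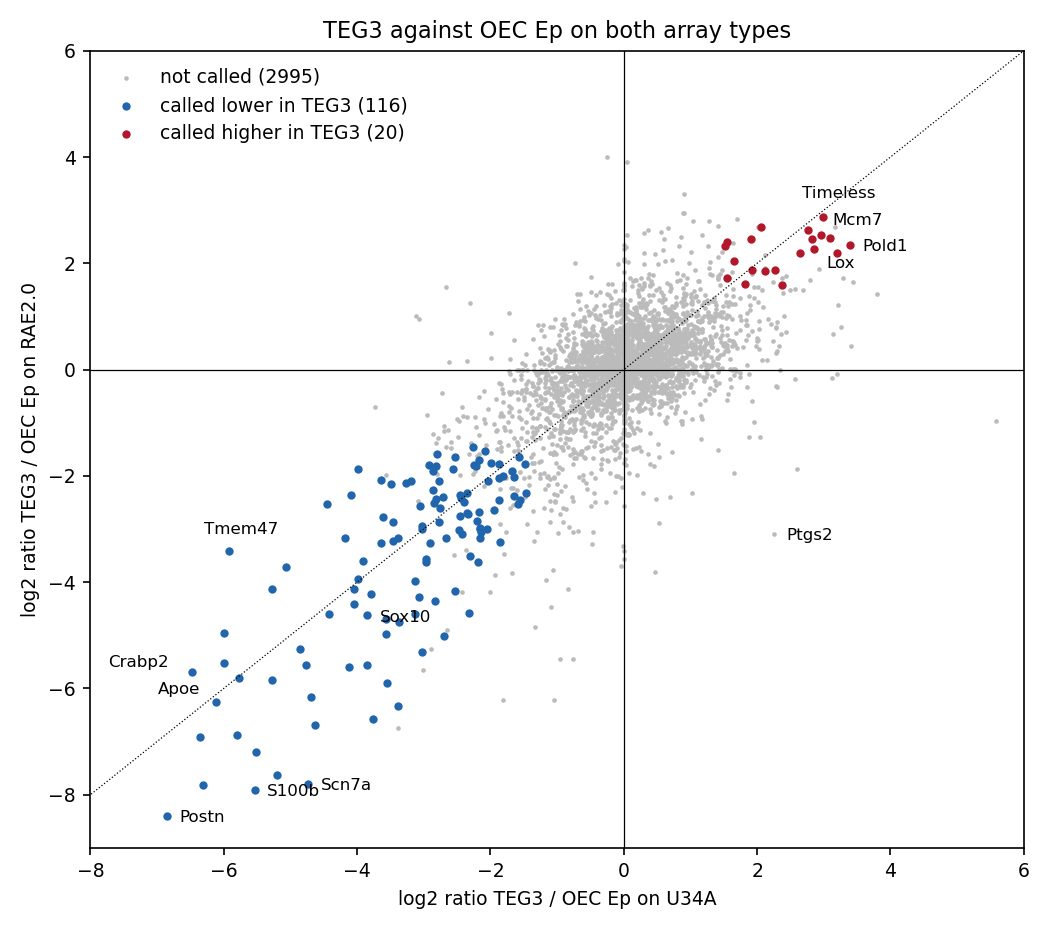
Each point is 1 of the 3131 genes measured on both array types, with its log2 ratio of TEG3 over OEC Ep on U34A (x axis) and on RAE2.0 (y axis). The 116 genes that fell (blue) reach below -8 on RAE2.0, the 20 that rose (red) stay below 4 on either type, and the dotted line marks equal ratios. Ptgs2, not called, lies on opposite sides of 0 on the types.

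Genes that replicate DNA were higher in TEG3. Of 20 measured members of the DNA replication and nucleotide synthesis list, 4 rose and none fell, and 13 were at least 2-fold higher on both types. Over all genes, 0.639% rose and 3.96% were at least 2-fold higher on both types. The median log2 ratio of the list was 1.73, beside 0.04 over all genes. The members that rose were Mcm7, Prim1, Pola2 and Pold1.

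Mcm7 is a subunit of the helicase that opens DNA at replication origins. On U34A its signal was 1145 in OEC Ep against 8948 in TEG3, and on RAE2.0 it was 3478 against 20105. The rise was 6.72-fold (log2 ratio 2.75, SE 0.36, adjusted p = 0.0205), and both TEG3 arrays lay well above both OEC Ep arrays of their type. OEC Lp lay between them at 3002 on U34A and 4483 on RAE2.0. Its fellow helicase subunits Mcm5 and Mcm6 were 5.11-fold and 4.03-fold higher in TEG3, with adjusted p-values of 0.091 and 0.0987, which miss the threshold. Mcm6 went from 2046 to 6367 on U34A and from 1969 to 10292 on RAE2.0. Mcm5 went from 172 to 697 on U34A and from 946 to 6091 on RAE2.0. OEC Lp read 595 and 1094 for Mcm5 and 3579 and 1494 for Mcm6.

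The polymerase that lays down primers, DNA polymerase alpha-primase, showed the same direction in its subunits. Prim1, the catalytic primase subunit, went from 705 in OEC Ep to 4425 in TEG3 on U34A and from 4706 to 21432 on RAE2.0, a rise of 5.35-fold (SE of the log2 ratio 0.40, adjusted p = 0.0385). Pola2, its accessory subunit, rose 4.55-fold, from 246 to 924 on U34A and from 277 to 1525 on RAE2.0 (adjusted p = 0.0372). Pold1, the catalytic subunit of the lagging-strand polymerase delta, rose 7.31-fold, from 203 to 2141 on U34A and from 383 to 1942 on RAE2.0 (SE of the log2 ratio 0.48, adjusted p = 0.0393). In each of these genes the TEG3 signal exceeded that of OEC Ep on both array types. OEC Lp read 2115 and 5754 for Prim1, 418 and 349 for Pola2, and 599 and 323 for Pold1. The sliding clamp Pcna was 2.60-fold higher (7385 against 21903 on U34A, 15546 against 35544 on RAE2.0) with an adjusted p of 0.13. Tyms, the thymidylate synthase that supplies dTMP, was 3.45-fold higher with an adjusted p of 0.058. Its signal in OEC Lp was 595 on U34A and 836 on RAE2.0, against 652 and 1324 in TEG3.

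Further genes of DNA upkeep, or near it, were among the largest rises. Timeless, which stabilises replication forks, was at the floor on U34A and at 184 on RAE2.0 in OEC Ep and at 1020 and 1350 in TEG3, a rise of at least 7.63-fold (SE of the log2 ratio 0.30, adjusted p = 0.0107). Ung, the glycosylase that removes uracil from DNA, rose at least 6.90-fold, from the floor to 1091 on U34A and from 655 to 3666 on RAE2.0 (adjusted p = 0.0159). Usp37, a deubiquitinase that acts at entry into S phase, rose at least 6.26-fold (adjusted p = 0.0302). These genes were low in OEC Ep on U34A, so the size of their rise there is only bounded. OEC Lp read 474 and 2161 for Ung and 291 and 331 for Timeless. Against OEC Lp, TEG3 was 1.98-fold higher for Ung (adjusted p = 0.237) and 3.78-fold higher for Timeless (adjusted p = 0.0581). Over the DNA repair and checkpoint list, 1 of 11 measured genes, Ung, rose and 4 were at least 2-fold higher on both types. The shares over all genes were 0.639% and 3.96%.

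Promoters of the replication genes are shown because E2F factors, which pocket proteins hold back, are known to act through sites of this kind. The motifs TTTCCCGC, TTTGGCGC, TTTGCCGC and TTTCGCGC were searched on both strands in RefSeq promoters of the GRCr8 build, from 250 bases before to 50 after each gene's start, 300 bases in all. A match was present in 21 of 47 promoters of the DNA replication list (44.7%), in 2 of 54 promoters of the mitosis list (3.70%), in 4.06% of the promoters of all measured genes, and in 2.25% of the 27457 promoters of the table. A match is a description of letters, not a test of binding, and the arrays measured no factor at these windows. The promoters of the genes below, each at least 2-fold higher in TEG3 on both types, are written 5′ to 3′ in the direction of the gene, with matches in capitals. They lie at chr12:22163129-22163428 for Mcm7 (minus strand), chr19:13488563-13488862 for Mcm5 (plus strand), chr13:42404303-42404602 for Mcm6 (minus strand) and chr9:120776034-120776333 for Tyms (minus strand).
Mcm7: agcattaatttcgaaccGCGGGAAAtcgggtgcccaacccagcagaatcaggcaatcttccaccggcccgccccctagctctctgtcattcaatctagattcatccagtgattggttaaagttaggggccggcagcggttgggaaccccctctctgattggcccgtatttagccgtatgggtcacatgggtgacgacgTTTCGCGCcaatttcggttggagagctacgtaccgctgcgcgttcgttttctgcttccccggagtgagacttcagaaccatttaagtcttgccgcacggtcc
Mcm5: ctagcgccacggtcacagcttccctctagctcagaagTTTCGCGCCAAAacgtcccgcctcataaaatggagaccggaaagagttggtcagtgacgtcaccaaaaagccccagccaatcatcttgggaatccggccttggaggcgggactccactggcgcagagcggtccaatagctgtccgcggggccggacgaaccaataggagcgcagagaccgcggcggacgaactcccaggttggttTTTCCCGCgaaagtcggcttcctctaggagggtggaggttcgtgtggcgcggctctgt
Mcm6: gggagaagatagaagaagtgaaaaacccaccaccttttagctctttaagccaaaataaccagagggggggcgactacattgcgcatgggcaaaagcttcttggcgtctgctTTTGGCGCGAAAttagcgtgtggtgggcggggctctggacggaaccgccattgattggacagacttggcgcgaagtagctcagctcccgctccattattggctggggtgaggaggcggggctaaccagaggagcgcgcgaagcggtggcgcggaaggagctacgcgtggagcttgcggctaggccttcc
Tyms: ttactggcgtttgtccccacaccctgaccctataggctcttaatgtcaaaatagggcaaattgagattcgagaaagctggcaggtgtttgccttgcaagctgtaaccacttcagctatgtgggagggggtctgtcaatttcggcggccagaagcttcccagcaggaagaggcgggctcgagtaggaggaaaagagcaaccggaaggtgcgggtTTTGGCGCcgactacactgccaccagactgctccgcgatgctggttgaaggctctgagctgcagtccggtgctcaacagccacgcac
The nearer match of Mcm7 begins 52 bases before the start of the gene, that of Mcm5 8 bases, that of Mcm6 135 bases and the single match of Tyms 37 bases. In Mcm5 and in Mcm6, matches on opposite strands overlap and share 4 letters, so the run of capitals there is 12 letters long.

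Most mitosis genes were higher in TEG3, but none passed the test. Of 19 measured genes of mitosis and the spindle, 0 had a limma adjusted p under 0.05, while 14 had an unadjusted p under 0.05, all 14 of them higher. At least 2-fold differences on both types were found for 11, again all higher, and the median log2 ratio was 1.34. Over all 3131 genes, 677 had an unadjusted p under 0.05 and 3.96% were at least 2-fold higher on both types. Top2a, the topoisomerase that untangles chromosomes, went from 623 in OEC Ep to 3506 in TEG3 on U34A and from 2718 to 7711 on RAE2.0, at least 4.0-fold higher, with an adjusted p of 0.12. Smc4, a condensin subunit, was 3.03-fold higher (adjusted p = 0.1), and Cdk1, the kinase that starts mitosis, was 2.74-fold higher (adjusted p = 0.235). For these genes the TEG3 array lay above the OEC Ep array on each type, while the ratios differed between types.

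The cyclins and their inhibitors did not move in one direction. Ccnd2, a D-type cyclin upstream of the pocket proteins, fell at least 13.5-fold, from 1926 to the floor on U34A and from 2940 to 243 on RAE2.0 (SE of the log2 ratio 0.60, adjusted p = 0.0357). Ccnd1 was at 914 and 2575 in OEC Ep and at 369 and 310 in TEG3, at least 4.53-fold lower, but its adjusted p was 0.175. The E-type cyclin Ccne1, an E2F target, went the other way, from 219 to 885 on U34A and from 438 to 1061 on RAE2.0, 3.13-fold higher with an adjusted p of 0.0797. Of the 15 measured genes of the list of pocket proteins, E2F factors, cyclins and CDK inhibitors, Ccnd2 was the 1 that fell and none rose. The shares over all genes were 3.7% and 0.639%. Rbl2, a pocket protein, had a log2 ratio of 0.07 (SE 0.35, adjusted p = 0.951). The CDK4 inhibitor Cdkn2b had a log2 ratio of 0.59 (SE 0.53, adjusted p = 0.565).

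The members of the list of p53 and its induced targets that passed the test fell. Among 10 measured genes, 2 fell and none rose, beside 3.7% and 0.639% of all genes tested. The median log2 ratio of the list was -0.99. By fold alone, 4 were at least 2-fold lower on both types and 1, Pcna, was higher, beside 8.14% and 3.96% over all genes. On RAE2.0 alone, where no test is possible, 3 of 13 members were at least 2-fold higher, Cdkn2a among them, and 2 lower, with a median log2 ratio of 0.05. Btg1, an antiproliferative gene, fell 3.81-fold, from 13681 to 3052 on U34A and from 54704 to 16926 on RAE2.0 (SE of the log2 ratio 0.31, adjusted p = 0.0354). Igfbp3, which binds insulin-like growth factors, fell at least 4.02-fold (adjusted p = 0.0438). The CDK inhibitor Cdkn1a was at 1488 and 1008 in OEC Ep and at 512 and 415 in TEG3, at least 2.66-fold lower with an adjusted p of 0.0731. Mdm2, the ligase that degrades p53 and is itself induced by it, had a log2 ratio of 0.42 (SE 0.56, adjusted p = 0.722). OEC Lp, for which no large T is stated, also read below OEC Ep for Btg1 and Cdkn1a, at 2318 and 439 on U34A and at 12594 and 421 on RAE2.0.

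The defining markers of ensheathing glia Sox10 and S100b were at or near the floor in TEG3, so these transcripts go against the cell type in its label. They were at or near the floor in OEC Lp too. Other markers of the list stayed above the floor in TEG3, among them Pmp22 and Cnp on both types and Ngfr on U34A. Of 20 measured markers of ensheathing and Schwann cells, 13 fell, beside 3.7% of all genes. None rose, and the median log2 ratio was -2.90. The summed signal of the list on U34A was 54943 in OEC Ep against 9531 in TEG3, and on RAE2.0 186216 against 12986. It was also low in OEC Lp, at 12893 and 33266. On U34A 20 of 20 list members were above the floor in OEC Ep and 17 of 20 in TEG3. On RAE2.0 the counts were 23 of 24 and 11 of 24. Markers enter with a probe set above the floor on at least 1 array of a type. Those that entered only through OEC Ep had to read lower in TEG3, so the list's counts, sums and median were partly set in advance. In bulk samples such as these, fewer cells of a type and less RNA per cell cannot be told apart.

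Sox10, the transcription factor that sets and keeps the identity of crest glia, went from 2904 in OEC Ep to 201 in TEG3 on U34A, and from 5743 to 233 on RAE2.0. It fell 18.9-fold (log2 ratio -4.24, SE 0.34, adjusted p = 0.00589). S100b, the calcium-binding protein used to stain these cells, went from 6119 to 132 on U34A and from 40365 to the floor on RAE2.0. That is a fall of at least 106-fold (SE of the log2 ratio 0.64, adjusted p = 0.0107). Both TEG3 arrays thus read S100b at the background level of their type.

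Other members of the list fell alongside. Scn7a, a sodium channel gene of Schwann cells, fell at least 77.0-fold, from 3840 to 144 on U34A and from 37441 to the floor on RAE2.0 (adjusted p = 0.019). Fabp7, the brain lipid-binding protein of ensheathing and radial glia, fell at least 35.9-fold (adjusted p = 0.0266). Erbb3, the receptor for glial neuregulin, fell at least 8.50-fold (adjusted p = 0.0165), and Npy, a neuropeptide made by ensheathing cells, fell at least 16.7-fold (adjusted p = 0.0107). The adhesion molecules of axon-glia contact fell as well. L1cam fell at least 12.7-fold, from 5032 to 600 on U34A and from 3253 to the floor on RAE2.0 (adjusted p = 0.0114). Ncam1 fell at least 6.52-fold (adjusted p = 0.0478).

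The low-affinity neurotrophin receptor Ngfr, the usual surface marker of these cells, differed between the array types. On U34A it was at 12716 in OEC Ep against 3621 in TEG3, and on RAE2.0 at 12522 against the floor. The line therefore kept a clear Ngfr signal on one type and none above the floor on the other, and the ratio did not pass the test (log2 ratio -4.02, SE 1.06, adjusted p = 0.11). Gap43, a growth cone protein also made by these glia, was 3.81-fold lower with an adjusted p of 0.0797.

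**Figure D2:**
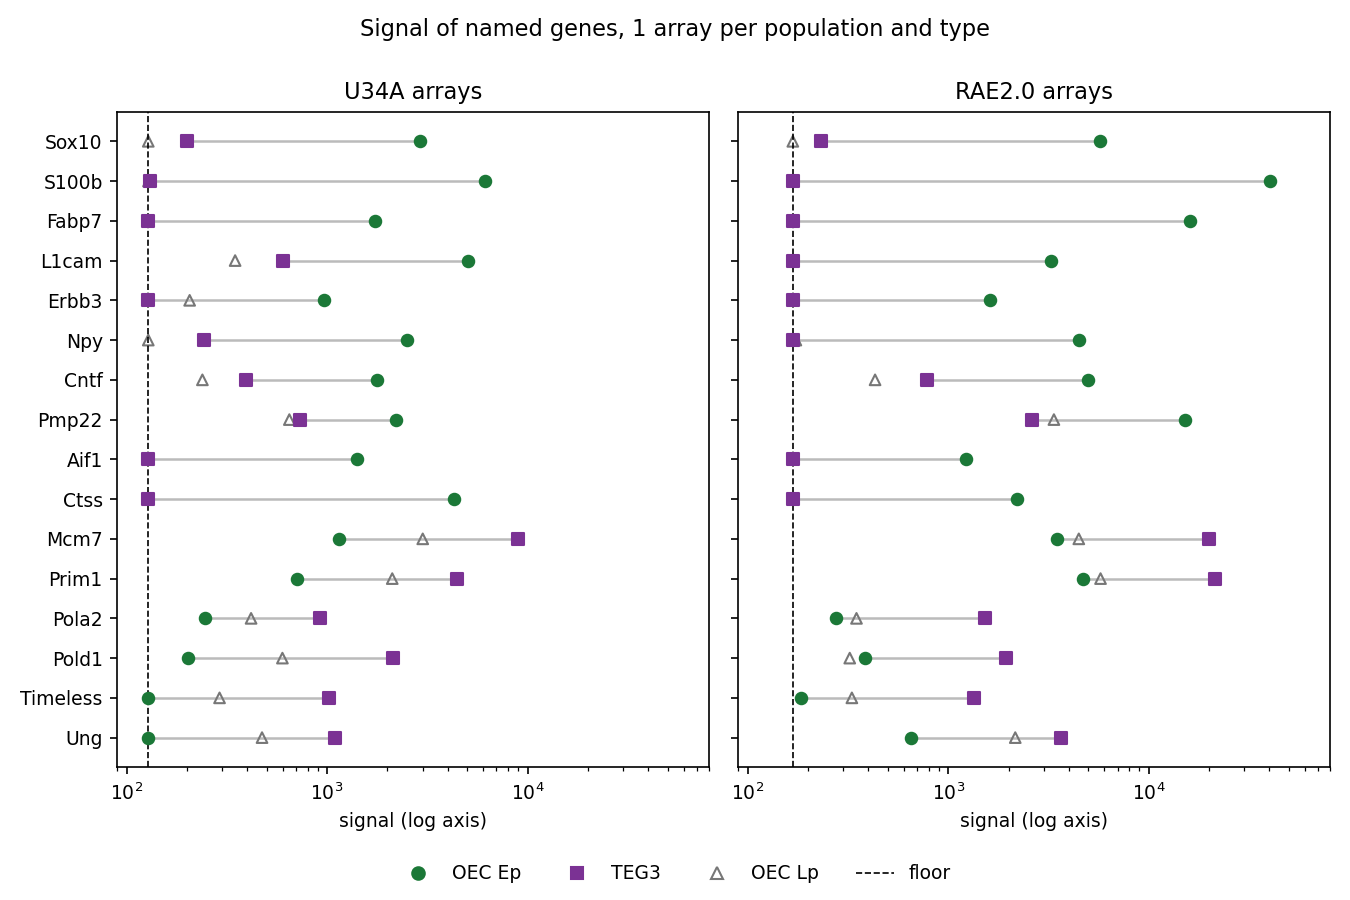
The signal of 16 named genes on each array type, on a log axis, with 1 array per population: OEC Ep as circles, TEG3 as squares, OEC Lp as open triangles and the floor as a dashed line. Glial and macrophage markers (upper rows) lie at or nearer the floor in TEG3, and DNA replication and repair genes (lower rows) lie above OEC Ep in TEG3 on both types.

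Myelin genes shared with these glia fell in part. Pmp22, a myelin membrane protein, stayed well above the floor in TEG3, at 737 on U34A and 2610 on RAE2.0, but was at 2211 and 15166 in OEC Ep, a fall of 4.18-fold (SE of the log2 ratio 0.35, adjusted p = 0.0402). Cnp, an enzyme of myelinating glia, fell 11-fold, from 4952 to 397 and from 11804 to 1226 (adjusted p = 0.0178). Sox10 and Erbb3 are the other members that fell. So 4 of 12 measured genes of the myelin and glial differentiation list fell, beside 3.7% of all genes, and none rose.

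Of 16 measured transcription factors of neural crest and glia, 1 fell, Sox10, and 1 rose, beside 3.7% and 0.639% of all genes. Lhx2, the one that rose and a LIM-homeodomain factor of neural and olfactory development, went from 162 to 672 on U34A and from the floor to 1073 on RAE2.0, at least 5.15-fold (SE of the log2 ratio 0.39, adjusted p = 0.0372). OEC Lp read 570 and 1369, close to TEG3 on both types. Klf4, a zinc finger factor of stem and epithelial cells, rose at least 6.50-fold, from 158 to 1074 and from 286 to 1777 (adjusted p = 0.0385), and OEC Lp read 574 and 2618.

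Some neurotrophic factors and receptors fell in the line. Of 14 measured, 4 fell, beside 3.7% of all genes, and none rose, and the median log2 ratio was -0.52. By fold alone, 5 were at least 2-fold lower on both types and 1 was higher, the cytokine Mif (2.93-fold, adjusted p = 0.120). By that count, 8.14% of all genes were lower and 3.96% higher. Cntf, a cytokine that supports motor neurons, was at 1776 and 5003 in OEC Ep and at 395 and 783 in TEG3, a fall of 5.36-fold (SE of the log2 ratio 0.32, adjusted p = 0.0212). Ptn, the heparin-binding growth factor pleiotrophin, fell 17.0-fold, from 5790 to 350 on U34A and from 4673 to 266 on RAE2.0 (adjusted p = 0.0107). The GDNF-family co-receptors Gfra1 and Gfra2 fell at least 18.7-fold and 3.72-fold (adjusted p = 0.00528 and 0.0499). Bdnf, a neurotrophin, was low in both populations, at 303 and 289 in OEC Ep and 184 and 538 in TEG3 (log2 ratio 0.09, SE 0.48, adjusted p = 0.951). Gdnf was at the floor in 3 of the 4 arrays and at 268 in TEG3 on RAE2.0, and no fold is given for it.

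Macrophage and microglial markers, genes of a cell type that a primary bulb culture can hold, moved with the glial genes. Of 9 measured members, 5 fell, beside 3.7% of all genes, and none rose, with a median log2 ratio of -2.82. The summed signal of the list was 28707 in OEC Ep, 1966 in TEG3 and 1877 in OEC Lp on U34A, and 90208, 4461 and 6443 on RAE2.0. A further count takes the markers with a probe set above the floor on at least 1 array of a type. Of these, 10 of 11 were above it in OEC Ep on U34A and 4 of 11 in TEG3. On RAE2.0 the counts were 21 of 21 and 4 of 21. Markers that entered only through OEC Ep had to be above the floor there and lower in TEG3. So these counts, the sums and the median are not separate support. Aif1, the microglial calcium-binding protein, was at 1407 and 1223 in OEC Ep and at the floor on both TEG3 arrays, a fall of at least 8.93-fold (adjusted p = 0.0107). The complement gene C1qb fell at least 12.8-fold, the lysosomal protease Ctss at least 20.9-fold and the lysozyme gene Lyz2 81.7-fold (adjusted p = 0.0107, 0.0107 and 0.00472). The part of macrophages in the falls of other genes was not tested.

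Markers of other cell types were read in the same way, beside the 3.7% of all genes that fell. For neurons 2 of 7 measured markers fell, the neurofilament genes Nefm (at least 99.1-fold) and Nefl (at least 55.1-fold), both at the floor on both TEG3 arrays (adjusted p = 0.00274 and 0.00281). The summed neuron signal went from 24921 to 5715 on U34A and from 45208 to 9824 on RAE2.0. Nefl and Nefm made up much of the OEC Ep sums, at 6981 and 10486 on U34A and 9367 and 20209 on RAE2.0. Of 6 neuron markers on RAE2.0 alone, 2 were at least 2-fold higher in TEG3 and none lower. Among all genes on that type alone, 12.6% were at least 2-fold higher and 9.35% lower. Fibroblast and meningeal markers summed on U34A to 109687 in OEC Ep against 56392 in TEG3, and on RAE2.0 to 223053 against 65150, and 2 of 13 fell. These were Postn, a matrix protein, and Thy1, a surface glycoprotein that fell at least 7.47-fold (adjusted p = 0.0326). Much of the OEC Ep sum on RAE2.0 came from Postn at 56582 and Fbln2 at 47455. Of 8 members on RAE2.0 alone, 3 were at least 2-fold higher in TEG3 and 1, Fbln2, lower, with a median log2 ratio of 0.12. Of 4 measured endothelial markers 0 passed the limma test and 1 had an unadjusted p under 0.05. The part of these cell types in other results was not tested.

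The deepest falls among all genes included matrix, peptide and lipid-transport genes. Postn was at 14838 on U34A and 56582 on RAE2.0 in OEC Ep and at the floor on both TEG3 arrays, at least 197-fold lower (SE of the log2 ratio 0.45, adjusted p = 0.00337). Calcb, a calcitonin gene-related peptide, was at 10216 and 37715 in OEC Ep and likewise at the floor on the TEG3 arrays, at least 134-fold lower (adjusted p = 0.00406). Its relative Calca fell at least 15.7-fold (adjusted p = 0.00472). Probes for such close relatives can share signal, so the split between Calca and Calcb is uncertain.

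Apoe, the lipid carrier that glia secrete, was among the brightest genes of OEC Ep and fell to near the floor. It was at 20258 and 22929 in OEC Ep and at 292 and 299 in TEG3, a fall of at least 73.0-fold (SE of the log2 ratio 0.30, adjusted p = 0.00274). OEC Lp read 16310 and 14669. Crabp2, a retinoic acid carrier, fell 67.8-fold (12778 to 143 and 9093 to 177, adjusted p = 0.0165), and Apod, a carrier of the lipocalin family, fell at least 18.1-fold (adjusted p = 0.0302). With Fabp7, 4 of 17 measured lipid carriers fell, beside 3.7% of all genes, and none rose.

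Genes of matrix glycoproteins were lower in the line, while enzymes that mature collagen went both ways. Of 16 measured laminins, glycoproteins and elastic fibre genes, 5 fell and none rose, and 11 were at least 2-fold lower on both types. The shares of all genes were 3.7% fallen and 8.14% lower. Reln, the neuronal positioning protein, fell at least 44.5-fold, from 8168 and 5233 to the floor (SE of the log2 ratio 0.36, adjusted p = 0.00406). Tnc, the axon-modulating glycoprotein tenascin-C, fell at least 17.5-fold, from 3160 to 267 and from 50939 to 1969 (adjusted p = 0.0107). Spp1 and Mgp, matrix proteins that bind calcium, fell at least 54.0-fold and 85.3-fold (adjusted p = 0.0173 and 0.0465). The fibronectin gene Fn1 was at 1326 and 36415 in OEC Ep and 1305 and 29031 in TEG3 (log2 ratio -0.18, SE 0.32, adjusted p = 0.801).

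Among 17 measured genes of collagens and their processing, 2 rose and 2 fell, beside 0.639% and 3.7% of all genes. Lox, the lysyl oxidase that cross-links collagen and elastin, rose 5.89-fold, from 1063 to 7689 on U34A and from 3616 to 17343 on RAE2.0 (SE of the log2 ratio 0.42, adjusted p = 0.0372). OEC Lp read 5321 and 32044, above OEC Ep on both types and above TEG3 on RAE2.0. Plod2, which hydroxylates collagen lysines, rose 3.96-fold, from 1426 to 6210 and from 2205 to 7958 (adjusted p = 0.0401). In the opposite direction Loxl1, a paralogue of Lox, fell 5.22-fold (9450 to 1301 and 6177 to 1647, adjusted p = 0.0288), and the collagen Col12a1 fell at least 9.14-fold (adjusted p = 0.019).

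Some proteases of the matrix and some of their inhibitors fell. Of 25 measured genes of matrix proteases and the plasminogen system, 4 fell and none rose, and by fold alone 8 were at least 2-fold lower on both types and 1 was higher. The higher one was F3, tissue factor, which starts clotting (5.83-fold, adjusted p = 0.0987). Of 13 protease inhibitors, 2 fell and none rose. Over all genes 3.7% fell and 0.639% rose, and 8.14% and 3.96% were at least 2-fold lower and higher on both types. Plat, tissue plasminogen activator, was at 9127 and 39295 in OEC Ep and at 1798 and 6087 in TEG3, a fall of 5.72-fold (SE of the log2 ratio 0.30, adjusted p = 0.0165), and the related activator Plau fell at least 6.76-fold (adjusted p = 0.0326). Serpine2, an inhibitor of these proteases and of thrombin, fell 80.5-fold, from 31014 to 559 and from 59590 to 510 (SE of the log2 ratio 0.77, adjusted p = 0.0173). So both activators and a bright inhibitor were lower in the line. The gelatinases Mmp2 and Mmp9 were at least 2.54-fold and 5.60-fold lower, with adjusted p-values of 0.178 and 0.179. Mmp14, a membrane-bound protease that activates Mmp2, had a log2 ratio of -0.65 (adjusted p = 0.306), and the inhibitors Timp1, Timp2 and Timp3 had log2 ratios of 0.04, 0.69 and -2.42 (adjusted p = 0.981, 0.267 and 0.131). F2r, the thrombin receptor, was at 7241 and 6437 in OEC Ep and 9845 and 12785 in TEG3 (log2 ratio 0.72, SE 1.30, adjusted p = 0.797).

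Some adhesion and cytoskeletal genes fell. Of 27 integrin and adhesion genes, 8 fell and none rose, beside 3.7% and 0.639% of all genes. Itga1, a collagen-binding integrin subunit, fell 11.2-fold, from 7539 to 346 and from 3803 to 662 (adjusted p = 0.0281), and Cd200, a surface glycoprotein that restrains macrophages, fell at least 42.8-fold (adjusted p = 0.0163). Of 28 cytoskeletal genes, 6 fell and none rose, and 1 was at least 2-fold higher on both types, the nuclear lamin Lmnb1 (at least 3.27-fold, adjusted p = 0.111). Vim, the intermediate filament of mesenchymal and immature glial cells, was still bright in TEG3, at 22057 and 25940, but was at 104624 and 90618 in OEC Ep, a fall of 4.07-fold (SE of the log2 ratio 0.30, adjusted p = 0.0296). Nes, the progenitor filament nestin, was at least 8.09-fold lower with an adjusted p of 0.0749, and the tubulin gene Tubb2b fell 14.6-fold (adjusted p = 0.0173).

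Of 28 ribosomal protein genes 0 passed the limma test, 0 had an unadjusted p under 0.05 and 0 differed by 2-fold on both types, and their median log2 ratio was 0.26. Of 24 glycolysis and hypoxia genes 0 passed (6 at an unadjusted p under 0.05, 3 of them higher), with a median of 0.12. Of 21 genes of cholesterol and fatty acid synthesis 0 passed (4 unadjusted, all higher), with a median of 0.57. Of 37 antioxidant and detoxification genes, 4 fell and none rose, and those that fell were Gpx3 (at least 19.3-fold), Sod3 (at least 26.4-fold), Nqo1 (at least 10.9-fold) and Aldh1a1 (at least 4.90-fold). By fold alone 7 of the 37 were at least 2-fold lower on both types and none higher, and 10 had an unadjusted p under 0.05, 9 of them lower. Over all genes 3.7% fell, 8.14% were at least 2-fold lower on both types and 677 of 3131 had an unadjusted p under 0.05. Sod3 and Gpx3 are secreted enzymes that remove superoxide and peroxide (adjusted p = 0.0173 and 0.0107).

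**Figure D3:**
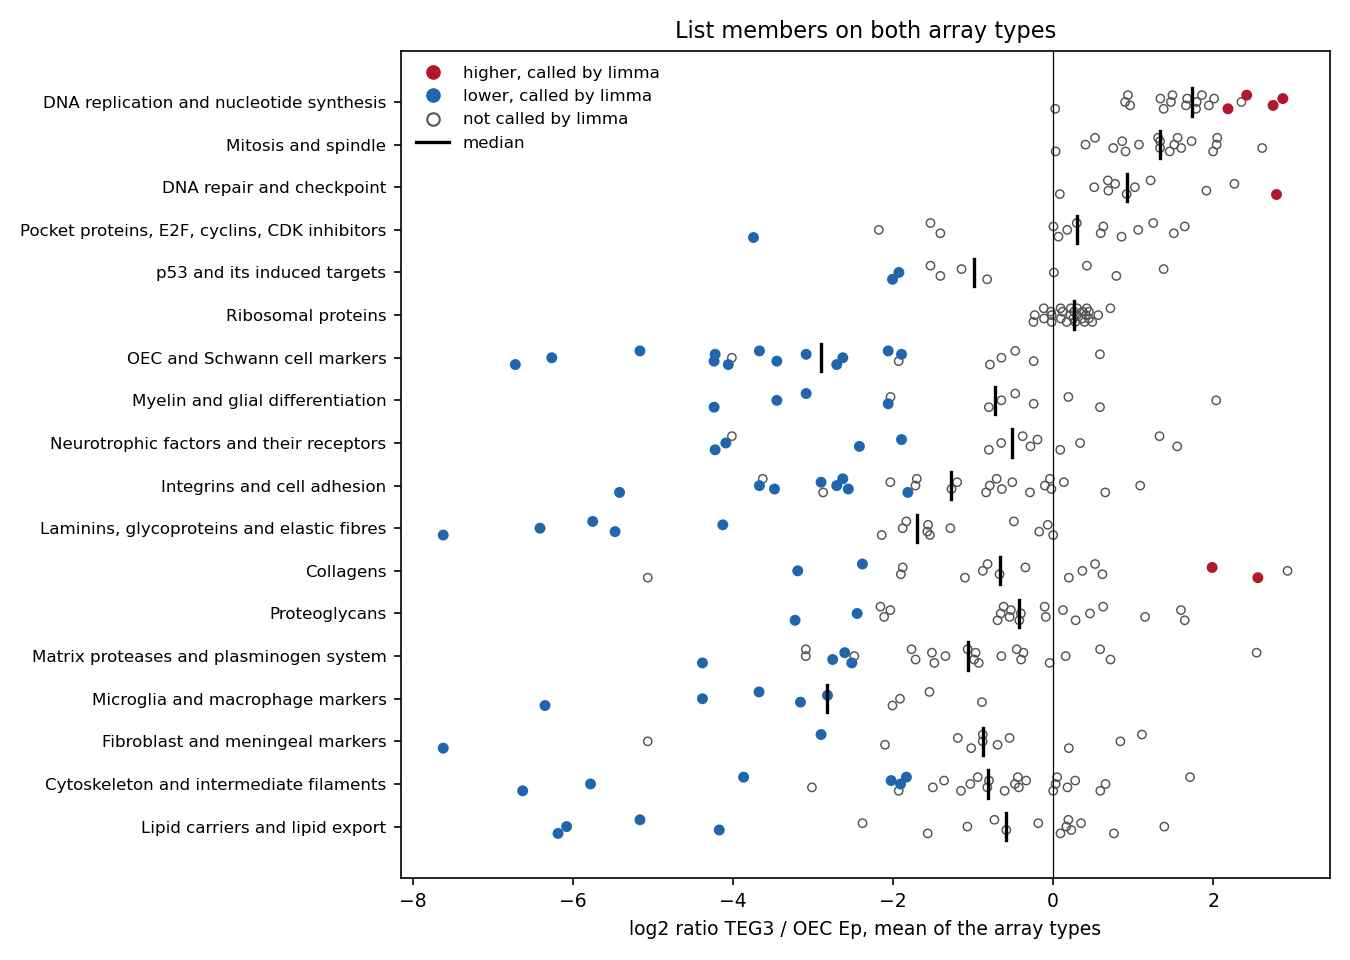
Each point is a measured list member on both array types, by its log2 ratio of TEG3 over OEC Ep, the mean of the types (x axis). Filled points passed the limma test (blue lower, red higher) and the bar is the list's median: 1.73 for DNA replication, 0.26 for ribosomal proteins and -2.90 for ensheathing and Schwann cell markers. Markers that entered only through OEC Ep had to read lower in TEG3.

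Some of the genes that fell were at or near the floor in OEC Lp as well. S100b was at 129 and the floor, Sox10 at the floor on both types, and Fabp7, Calcb, Nefm and Aif1 at the floor on both types in OEC Lp. Other genes differed between the line and both primary cultures. Over the same 3131 genes, 1.21% passed the test of TEG3 against OEC Lp, a contrast that shares the TEG3 arrays with the main one. Apoe was in this group, at least 52.4-fold lower in TEG3 than in OEC Lp (adjusted p = 0.00834). Fgfr1, a fibroblast growth factor receptor, was at 1841 and 1861 in OEC Ep and 4086 and 7771 in OEC Lp but 202 and 437 in TEG3, a fall of 6.23-fold from OEC Ep and 19.0-fold from OEC Lp (adjusted p = 0.0266 and 0.0231). Tfpi, the inhibitor of the tissue factor pathway of clotting, was at 471 and 1406 in OEC Ep and 5279 and 8253 in OEC Lp but at the floor and 343 in TEG3, at least 3.88-fold and 31.4-fold lower (adjusted p = 0.0478 and 0.0231).

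The other genes that fell against both cultures were Alcam, an adhesion molecule (6.19-fold from OEC Ep and 6.90-fold from OEC Lp), Cd81, a tetraspanin (5.90-fold and 6.4-fold), Loxl1 (5.22-fold and 8.43-fold), the complement regulator Cd59b (3.05-fold and 4.85-fold), Selenop, Tmem47, Cd48, Lbh and Cpq. Adora2b, an adenosine receptor, was the one that rose against both, at the floor on U34A in both cultures and at 620 in TEG3, and on RAE2.0 at 1542 in TEG3, 419 in OEC Ep and 225 in OEC Lp. It rose at least 4.22-fold against OEC Ep (adjusted p = 0.0385) and had an adjusted p of 0.045 against OEC Lp. Mcm7 against OEC Lp had a log2 ratio of 1.87 with an adjusted p of 0.0828, and Ccnd2 one of -3.0 with an adjusted p of 0.0925.

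On some inflammatory genes the array types disagreed for this comparison. Ptgs2, the inducible cyclooxygenase, was the only gene at least 4-fold apart in opposite directions. On U34A it was at 180 in OEC Ep against 860 in TEG3, and on RAE2.0 at 3167 against 373. Ccl2 and Il6, a chemokine and a cytokine chosen here after their values were seen, did likewise by at least 2-fold. Ccl2 on U34A was at 3038 in OEC Ep against 18482 in TEG3, and on RAE2.0 at 63891 against 17426. Il6 was at 172 against 349 on U34A and at 2817 against 564 on RAE2.0. In all 3 genes the OEC Ep array was below TEG3 on U34A and above it on RAE2.0. The chemokine, cytokine and complement list as a whole had a median log2 ratio of 0.33 on U34A and -1.71 on RAE2.0 over its 32 measured members. Of these 4 fell and none rose, and 10 were at least 2-fold lower on both types and none higher. The shares of all genes were 3.7% fallen and 8.14% lower.

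For the 8408 genes that only RAE2.0 measured, a population is a single array, so there is no replicate check and no test. Of them, 12.6% were at least 2-fold higher in TEG3 and 9.35% at least 2-fold lower. These are the shares to set beside the list counts given below for this type alone. At 4-fold, 146 were higher and 299 lower. For 432 of them a probe set on U34A exists but did not exceed the floor there in any population. Lama5, Lama2 and Rb1, named below, are among them.

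The replication machinery extended to this larger set. Of 29 DNA replication genes on RAE2.0 alone, 24 were at least 2-fold higher and 1, Uhrf1, was at least 2-fold lower, with a median log2 ratio of 1.88. Uhrf1, which guides DNA methylation behind the fork, is named here after its value was seen. The remaining helicase subunits were all higher. Mcm2 was at 941 in OEC Ep and 7021 in TEG3 (7.46-fold), Mcm3 at 935 and 6534 (6.99-fold) and Mcm4 at 2842 and 12198 (4.29-fold). The loading factor Cdt1 was 8.96-fold higher (785 against 7034) and the helicase cofactor Cdc45 6.09-fold higher. Pold2, the second subunit of polymerase delta, was 6.01-fold higher.

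Replication control and repair genes were among the higher genes. Dtl, which marks Cdt1 for destruction, was at 804 in OEC Ep and 9610 in TEG3 (12-fold). Dscc1, a clamp loader subunit, was 8.77-fold higher and Cdca7, a chromatin gene activated by E2F and Myc, 13.6-fold higher. OEC Lp read 915 for Dtl, 910 for Dscc1 and 779 for Cdca7, in each case below TEG3. Of 23 repair and checkpoint genes 17 were at least 2-fold higher and none lower. Chek1, the kinase of the replication checkpoint, was at 777 and 4243 (5.46-fold), and Fancd2, of the crosslink repair pathway, was at 501 and 2307 (4.61-fold).

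Mitosis genes on RAE2.0 alone were higher by a smaller factor. Of 34, 21 were at least 2-fold higher and none lower, with a median log2 ratio of 1.19. The spindle checkpoint kinase Ttk was 4.13-fold higher and the proliferation marker Mki67 2.37-fold higher (4428 against 10496). Ccna2, the cyclin of S phase and G2, was at 3572 and 5132, a ratio of 1.44.

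Of the pocket proteins that large T binds, Rbl1 and Rb1 were measured on this type alone, and Rbl2 on both types is given above. Other genes of the pocket protein list are given beside them. Rbl1, the pocket protein whose gene is itself an E2F target, was at 1385 in OEC Ep and 4298 in TEG3 (3.10-fold). E2f1, an activating E2F factor, was at 762 and 2073 (2.72-fold), whereas Rb1 was at 1115 and 1650 (1.48-fold). Lin9, a subunit of the complex that joins E2F factors to mitotic genes, was 4.44-fold higher, and Tfdp2, a dimer partner of E2F factors, at least 4.37-fold higher. Of 17 genes of this list on RAE2.0 alone, 9 were at least 2-fold higher and none lower. The largest ratio among the named genes higher on RAE2.0 alone was that of Cdkn2a, whose products hold back CDK4 and Mdm2. It was at 528 in OEC Ep and 9257 in TEG3, 17.5-fold higher, and OEC Lp read 5948.

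Other genes at the higher end were not of the cell cycle. Lama5, a laminin chain of epithelial basement membranes, was at 171 in OEC Ep and 2681 in TEG3 (15.7-fold). Its U34A signal did not exceed the floor in any population, TEG3 included, so the other type did not show this difference. Hoxa9, a positional homeobox gene, was at the floor in both primary cultures but at 1788 in TEG3 (at least 10.6-fold). The chemokine Cxcl12 was at 5251 in TEG3, 1033 in OEC Ep and 220 in OEC Lp. Desmosomal Dsp (at least 7.72-fold) and the tight junction gene F11r (6.85-fold) were at or near the floor in both primary cultures. The collagen Col8a2 and the caspase Casp12 were 8.70-fold and 8.73-fold higher in TEG3, but OEC Lp exceeded the line in both, at 13493 and 14065.

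The lower end of the genes on RAE2.0 alone held glial and macrophage genes together. Of the macrophage markers on this type alone 11 of 12 were at least 2-fold lower, with a median log2 ratio of -3.51. Over the whole list on RAE2.0, 21 of 21 markers were above the floor in OEC Ep and 4 of 21 in TEG3. Markers that entered only through OEC Ep had to read lower in TEG3, so this count and median are not separate support. Adgre1, which encodes the macrophage marker F4/80, was at 15812 in OEC Ep but at the floor in TEG3 (at least 94.1-fold), and Fcer1g, an Fc receptor chain, was 65.3-fold lower. Both were at or near the floor in OEC Lp too. Gfap, the glial filament, was at 3236 in OEC Ep but at the floor in TEG3 and OEC Lp, at least 19.3-fold lower. Of 4 ensheathing and Schwann cell markers on this type alone, 2 were at least 2-fold lower and 1 higher. The higher one was Tfap2a, a transcription factor of the neural crest, which was at the floor in OEC Ep, at 382 in OEC Lp and at 708 in TEG3 (at least 4.21-fold). Matn2, a matrix protein of Schwann cells, was at least 66.6-fold lower, and Lgi4, which Schwann cells need to myelinate, was 17.8-fold lower. Sox2, a progenitor factor of glia, was at 725 in OEC Ep but at the floor in TEG3 (at least 4.32-fold). The largest ratio among the named lower genes belonged to Kctd12, an auxiliary subunit of GABA-B receptors, at 18854 against 169 (at least 112-fold).

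Many matrix genes on RAE2.0 alone were lower. Of 15 collagen genes, 10 were at least 2-fold lower and 1, Col8a2, higher. Col4a1, of the basement membrane, was at 22804 in OEC Ep and 3982 in TEG3 (5.73-fold lower) and Col5a3 was 21.8-fold lower. Lama2, the laminin chain of Schwann cell basement membranes, was at least 21.7-fold lower, but on U34A it did not exceed the floor in any population. Of 19 laminin and glycoprotein genes on this type alone, 10 were at least 2-fold lower and 3 higher, Lama5 among the higher. Among proteases, Adamts4 and Adamts5, which cut the proteoglycan aggrecan, were 11-fold and 18.9-fold lower, and 9 of the 14 genes of that list were at least 2-fold lower. None of the 14 was higher by that factor.

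**Figure D4:**
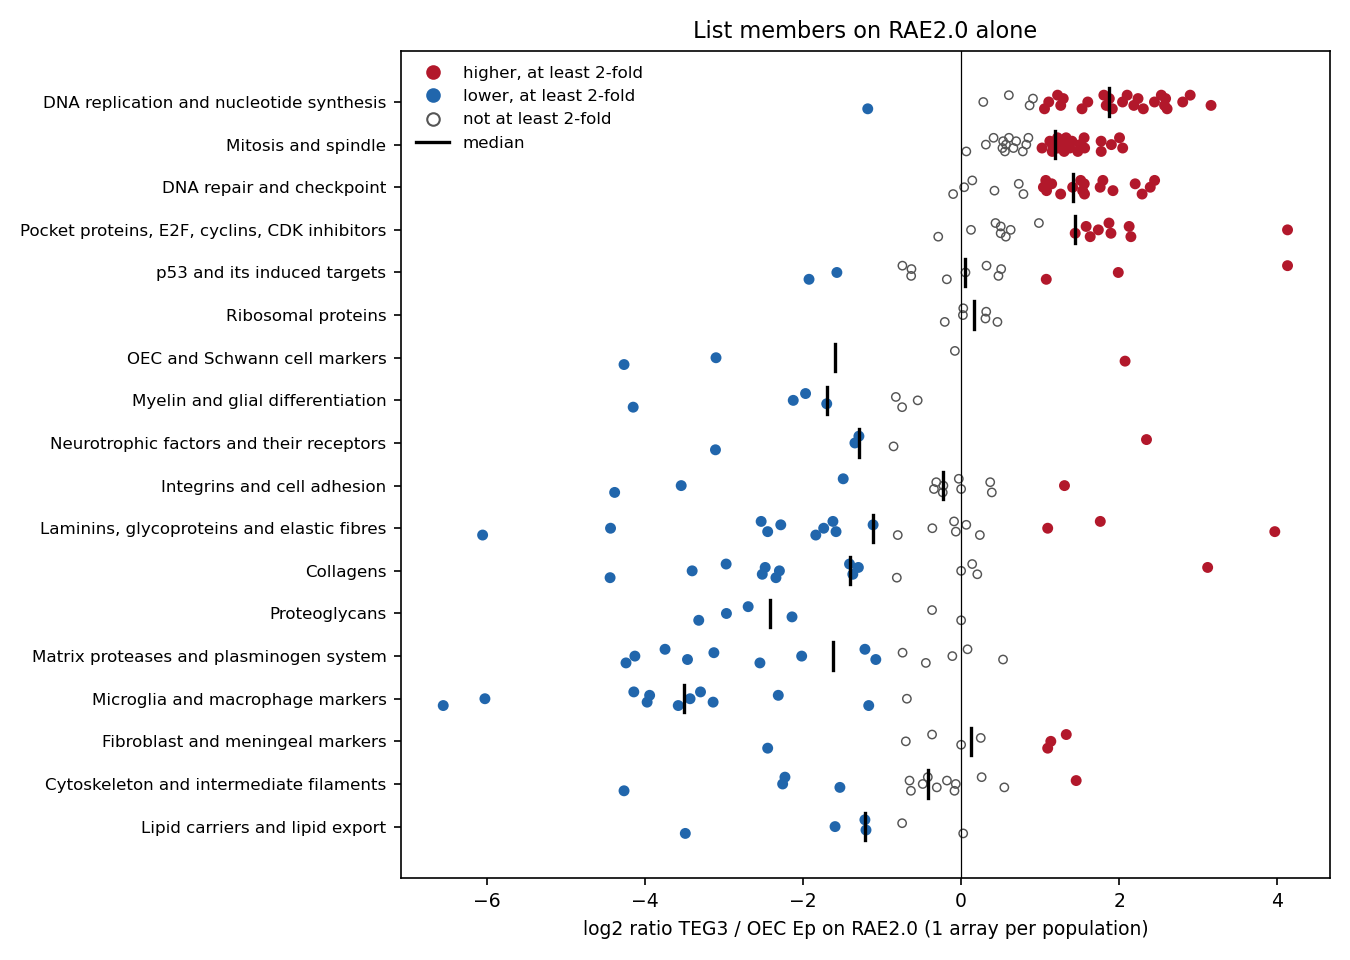
Each point is a list member measured on RAE2.0 alone, by its log2 ratio of TEG3 over OEC Ep on that type (x axis), with 1 array per population and no test. Filled points differ by at least 2-fold (blue lower, red higher) and the bar is the list's median: 1.88 for DNA replication and -3.51 for macrophage markers. Macrophage markers that entered only through OEC Ep had to read lower in TEG3. Cdkn2a is the point beyond 4 in the list of pocket proteins and in the p53 list, where it is an upstream gene and not an induced target.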

How the data were processed

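Total RNA of OEC Ep, OEC Lp and TEG3 was read on 1 Affymetrix U34A and 1 RAE2.0 array each. The deposited values are probe set intensity, made by the authors with Microarray Suite 5.0 (MAS5, per the labels and the submitters' processing notes); each array had already been scaled to a common mean of about 1000. The number of arrays limits the precision.

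Arrays were rescaled to 1 mean trimmed by 2% within a type, floored at the 40th percentile of the type and put on a log2 scale. Control probe sets were left out. Probe sets above the floor on at least 1 array of a type and with 1 gene symbol were averaged by gene. Symbols came from GEO's platform annotation, updated through RefSeq. For genes measured on both types, limma 3.58.1 (R 4.3.3) was run with population and array type as terms over all 6 arrays, which leaves 2 residual degrees of freedom. The pairing by array type comes from the labels. The script was tested on simulated data. Genes on RAE2.0 alone have values and no test.

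The groups, 40 gene lists, tests and the genes to be named were chosen with earlier results of these data known. Named genes were the 12 largest called ratios in each direction, up to 5 called members (otherwise the 2 with the lowest p) of each list, for RAE2.0 alone the 12 highest and lowest ratios and up to 5 list members at 4-fold or more, 53 genes of ensheathing cell, cell cycle, protease and neurotrophic interest, and genes at 4-fold or more in opposite directions. Genes named for a difference from OEC Lp were chosen after their values were seen. Alternatives changed the scaling, floor, filter, probe set choice, arrays and block.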

Additional observations from a re-analysis of the deposited data

How the results depend on the processing

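All 136 calls kept their direction under each alternative that measured them (54 of 54 where every array had to exceed the floor). This is little support, since each call was already at least 2-fold apart in the same direction on both types. The count of 136 rose to 245 with TEG3 and OEC Ep alone, where 2916 genes were tested, and was 86 with probe sets above the floor on all arrays, 29.1% of them higher instead of 14.7%. It was 0 with no floor (602 genes at an unadjusted limma p under 0.05), 1 with no filter on dim probe sets (645), and 0 with no replicate block for array type (172). Without any 1 array it was 0 (412 to 623 genes unadjusted). Quantile, median and no scaling, other floors, the brightest probe set and an intensity trend gave 106 to 163. The count of 379 genes at least 2-fold apart on both types became 660 with no floor, 251 with a floor at the 60th percentile, 217 with probe sets above the floor on all arrays and 112 at 4-fold. The count of 1844 on RAE2.0 alone became 3350 with no floor and 445 at 4-fold. Of the 98 named genes measured on both types, 11 changed direction in some alternative, and none of these had passed the test. Without 1 array each, their log2 ratios ranged from -0.69 to 0.86 for Bdnf, -1.95 to 2.68 for Ccl2, -0.022 to 1.21 for Cdkn2b, -0.77 to 2.21 for F2r, -0.42 to 0.070 for Fn1, -0.14 to 0.82 for Gdnf, -2.40 to 1.10 for Il6, -0.072 to 0.91 for Mdm2, -2.77 to 1.93 for Ptgs2, -0.34 to 0.47 for Rbl2 and -0.74 to 0.82 for Timp1. Il6 was also at 0.0036 with no floor. The cause of these moves was not tested, apart from the stricter fold and the change in genes or arrays entered. In alternatives chosen after seeing the data, the both-type count was 380 to 383 without 1 OEC Lp array and the RAE2.0-alone count 1868 to 1901 without 1 OEC Lp array or 1 U34A array of the other populations. Leaving out any other array leaves no ratio on that type. Dim signals limit the results: folds written "at least" depend on the floor, and so do the p-values.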
